A study of Mus musculus with 6 samples.

Results

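The transcripts of splicing factor and hnRNP genes were examined in mouse peritoneal macrophages labelled as wild type or as conditional knockout of the F-box gene Fbxo38. Genes were taken by name: SR proteins (Srsf followed by a digit), hnRNP proteins (Hnrnp), the SF3A and SF3B complexes (Sf3a, Sf3b), Sm and other snRNP proteins (Snrp), pre-mRNA processing factors (Prpf), RNA-binding motif genes (Rbm followed by a digit) and U2AF (U2af). The rule found 257 transcripts of 89 genes among the 33539 transcripts in the deposited table. Every listed transcript, of any gene, had a deposited log2 fold change of at least 1 in size between the genotypes, so each transcript described here entered the table through that same contrast. Differences between the genotypes are therefore partly built in, and p-values computed on the table are too small.

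There were 3 wild-type libraries (WT 1 to 3) and 3 libraries from Fbxo38 conditional knockout mice (cKO 1 to 3), in which the gene was deleted in myeloid cells. Both genotypes came from littermates, and all cells had been treated for 24 h with 20 ng/mL of the cytokines IL-4 and IL-13, so no unstimulated group stands beside them. The sources used here name neither the Cre driver nor the strain or age of the mice. Nothing in the labels ties a replicate number to a litter.

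Introns are removed from pre-mRNA by the spliceosome, which is built on each intron from small nuclear ribonucleoproteins (snRNPs). SR proteins mostly bind exons and recruit the machinery, hnRNP proteins coat nascent RNA and often act against splice site choice, U2AF binds the pyrimidine-rich tract and the AG at the end of the intron, and SF3A and SF3B, parts of the U2 snRNP, hold the branch point. Many of these genes are known to limit their own output by making unproductive transcripts, which keep an intron or take up an exon with a premature stop codon and are then degraded by nonsense-mediated decay.

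Of the 257 listed transcripts, 90 (35.0%) were classed as retained introns in the GENCODE M21 annotation, 63 (24.5%) as protein coding, 41 as processed transcripts and 33 (12.8%) as substrates of nonsense-mediated decay. Another 27 had been assembled by StringTie and carry no class, and 3 were pseudogene or non-stop transcripts. Over all listed transcripts, 22.9% were retained introns, 39.5% were protein coding and 6.89% were substrates of nonsense-mediated decay. The same genes have 727 annotated transcripts, of which 30.8% are retained introns and 43.3% are protein coding. Of the annotated protein coding transcripts of these genes 20.0% were listed, against 33.1% for all genes in the table, while 40.2% of their retained introns were listed, against 40.9% for all genes. Only 14 of the 126 principal transcripts of these genes in the APPRIS ranking, which marks the main coding form, were listed (11.1%, against 31.5% for all genes in the table). These shares describe the table and were not tested. The main coding forms of most of these genes are outside the table and were not analysed here, so the values below are mostly those of minor forms.

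**Figure D1:**
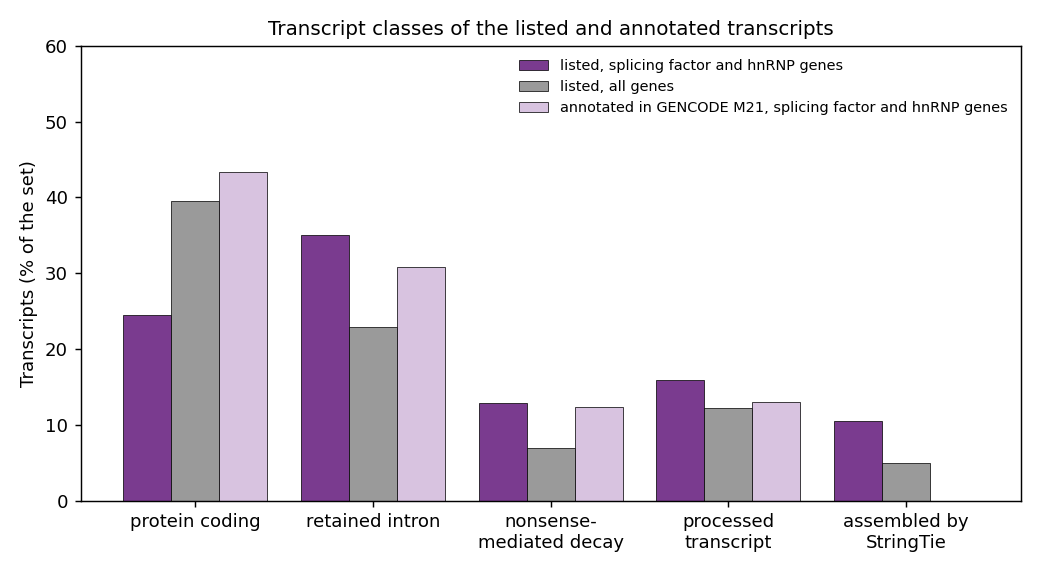
Share of transcripts in each class, in percent, for the 257 listed transcripts of splicing factor and hnRNP genes, for all 33539 listed transcripts, and for the 727 annotated transcripts of the same genes. Retained introns are 35.0% and protein coding forms 24.5% of the first set, against 22.9% and 39.5% over all listed transcripts.

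For 5 of the transcripts named below, a stretch in which they differ from the principal transcript of their gene shows what the class means at the sequence level. All are from GENCODE M21 transcript sequences on GRCm38, found by transcript identifier. Which build the authors used is not given in the sources used here. Snrpg ENSMUST00000203782 runs 136 bases past the end of an exon into the intron, on the plus strand of chr6:86376620-86376755. Rbm19 ENSMUST00000202388 runs 139 bases into an intron, on the plus strand of chr5:120118843-120118981. In both, capitals mark the GT of the splice donor and the first stop codon in frame with the start codon of the principal transcript.
Snrpg intron stretch: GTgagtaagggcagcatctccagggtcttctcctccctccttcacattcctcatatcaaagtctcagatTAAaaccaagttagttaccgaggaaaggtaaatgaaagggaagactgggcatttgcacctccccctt
Rbm19 intron stretch: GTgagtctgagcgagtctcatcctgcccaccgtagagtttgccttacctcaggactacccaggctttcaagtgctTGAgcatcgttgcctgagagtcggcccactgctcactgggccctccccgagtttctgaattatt

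Hnrnpm ENSMUST00000234893 begins 115 bases inside an intron, on the minus strand of chr17:33648865-33648979, and keeps its pyrimidine-rich tract and splice acceptor. Capitals mark the acceptor AG.
Hnrnpm intron stretch: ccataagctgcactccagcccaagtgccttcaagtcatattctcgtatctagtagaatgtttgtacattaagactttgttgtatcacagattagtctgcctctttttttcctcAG

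The other pair of transcripts leave an exon out. Srsf3 ENSMUST00000233127 skips an exon of 208 bases, on the plus strand of chr17:29036241-29036448, that holds the start codon, shown in capitals. Hnrnpk ENSMUST00000225031 skips an exon of 44 bases, on the minus strand of chr13:58397753-58397796. Neither length is a multiple of the codon length.
Srsf3 skipped exon: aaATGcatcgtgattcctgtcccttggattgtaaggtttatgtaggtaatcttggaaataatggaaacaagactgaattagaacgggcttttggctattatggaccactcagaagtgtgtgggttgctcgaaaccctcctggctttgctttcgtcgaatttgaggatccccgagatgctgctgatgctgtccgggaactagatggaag
Hnrnpk skipped exon: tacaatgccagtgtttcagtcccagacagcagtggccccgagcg

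The libraries differed in ways that touch every comparison of the genotypes. Listed transcripts summed to 65681 TPM (a level scaled to library size and transcript length) in WT 2 and to between 20109 and 37874 TPM in the other 5 libraries. Transcripts of mesothelial and fibroblast markers (11 of 12 genes listed) summed to 56.2, 475 and 136 TPM in WT and to 17.7 to 57.4 TPM in cKO, and those of 5 proliferation genes to 14.6 to 38.9 TPM in WT, against 3.59 to 9.83 TPM in cKO. Of 12 macrophage markers, 5 had a listed transcript, with summed values of 9.33 to 28.0 TPM in WT and 2.11 to 6.48 TPM in cKO, and the defining genes Cd68, Lyz2 and Mertk were not among them and were not analysed here. The Y-linked transcript Eif2s3y ENSMUST00000091197 was listed at 0 in WT 1 and WT 2 and was between 35.1 and 50.7 TPM in the other 4 libraries. Xist ENSMUST00000127786 was at 2.26 and 30.27 TPM in WT 1 and WT 2 and listed at 0 in WT 3 and all cKO libraries. By these transcripts WT 1 and WT 2 stood apart from WT 3 and cKO, so sex partly runs with genotype. The part of cell mixture, sex and library in the results below was not tested, and in bulk samples fewer cells of a type and less RNA per cell cannot be told apart. The 7 listed transcripts of the targeted gene Fbxo38 summed to 8.79, 11.8 and 12.4 TPM in WT and to 6.14, 9.08 and 5.90 TPM in cKO, with an exact two-sided permutation p of 0.2. The groups overlapped, so these transcripts do not separate the genotypes.

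The listed transcripts of splicing factor and hnRNP genes were scarce. Together they made up 90.2, 124 and 133 TPM in WT 1 to 3 and 102, 103 and 107 TPM in cKO 1 to 3. The cKO sums all lay inside the WT range. For 168 of the 257 transcripts (65.4%) the highest value in any library was under 1 TPM, compared with 78.7% of all listed transcripts. By the deposited fold change 147 (57.2%) were lower and 110 higher in cKO, and 60.6% of all listed transcripts were lower. Retained introns were listed as lower in 60 of 90 cases (66.7%, against 68.3% of all listed retained introns), and protein coding forms in 32 of 63 (50.8%, against 61.1%). In 44 of the 55 genes with more than 1 listed transcript (80.0%, against 65.6% of all such genes in the table), the transcripts went in both directions. These counts follow from the selection of the table and are given as a description.

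Summed over a family, listed TPM overlapped between the genotypes in every family. The Snrp transcripts had the higher mean in cKO, at 17.3 ± 8.27 TPM in WT, against 33.8 ± 17.0 TPM in cKO (SD, n = 3 each), and most of this was the Snrpg retained intron. The other 6 families had the lower mean in cKO. The U2af transcripts were at 3.73, 7.05 and 6.80 TPM in WT, against 1.00, 4.61 and 1.66 TPM in cKO, and the Hnrnp transcripts at 37.9 ± 12.8 TPM in WT, against 29.3 ± 5.94 TPM in cKO (SD, n = 3 each).

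**Figure D2:**
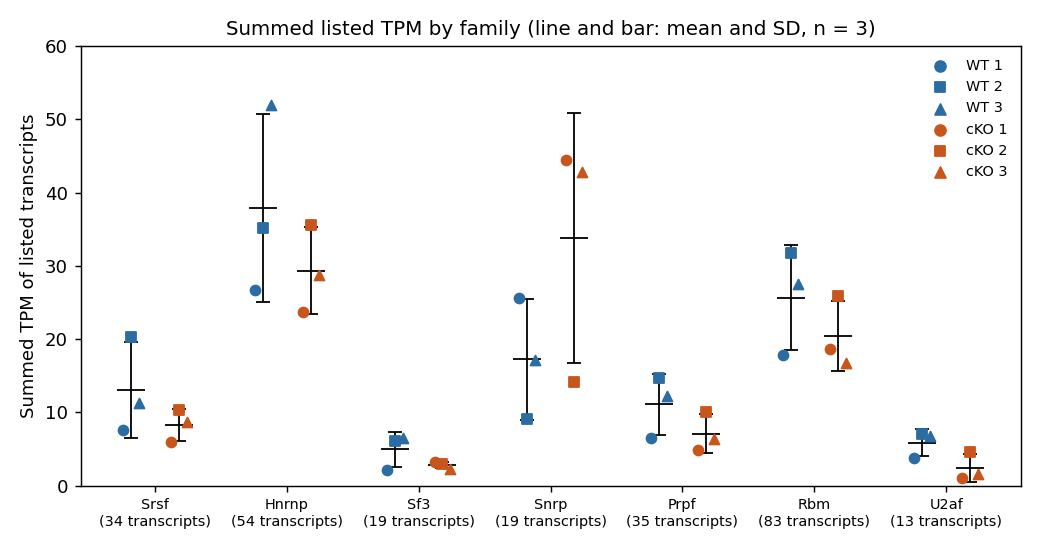
Summed TPM of the listed transcripts of each family in each library, with the mean and SD of each genotype (n = 3). In every family the WT and cKO points overlap, and the Snrp family, at 25.6, 9.06 and 17.2 TPM in WT, against 44.4, 14.1 and 42.8 TPM in cKO, spreads most within cKO.

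Between the genotypes, 24 transcripts of 20 genes could be tested, those with at least 1 TPM in at least 3 libraries. None passed in either direction by limma with Benjamini-Hochberg adjustment over all 2050 tested transcripts, of which 0% did. The lowest adjusted p of these genes was 0.134. Without adjustment, p was under 0.05 for 4 lower and 1 higher transcript, or 16.7% and 4.17% of the 24, against 16.9% and 6.1% of all tested transcripts. The values of the genotypes did not overlap for 5 lower and 3 higher transcripts, against 22.9% and 14.1% of all tested, or 8 of the 24 (33.3%) in either direction against 37%. Both counts lie near the background of the table. The fitted difference, on the log2(TPM + 1) scale, was below 0 for 11 (45.8%, against 50.6% of all tested) and above 0 for 13, with a median of 0.37, and the median over all tested transcripts was -0.39. Without WT 2 these medians were 0.14 and 0.12. A transcript that was high in 1 genotype alone could pass the filter on low values through that genotype, so these counts are not those of all 257.

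**Figure D3:**
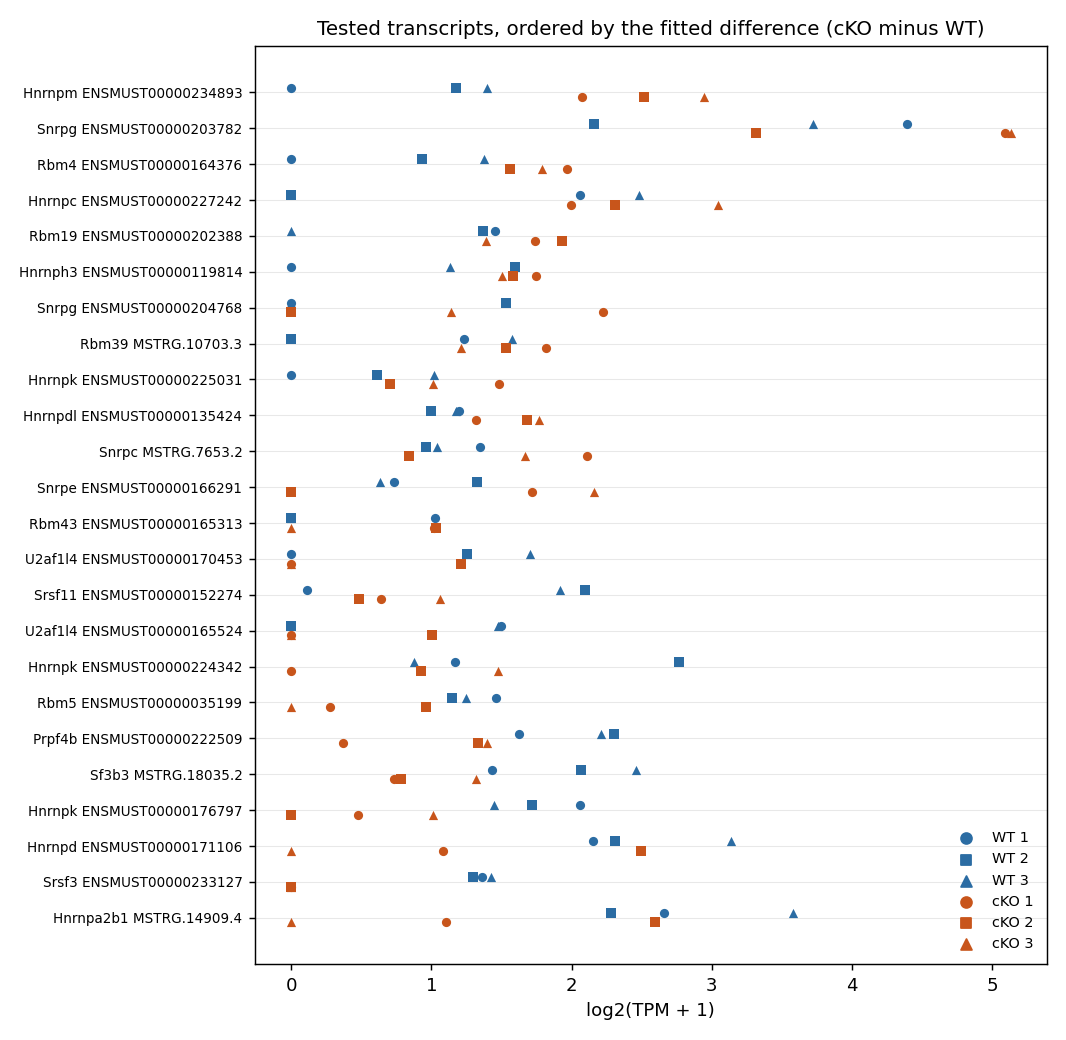
Level of each of the 24 tested transcripts in each library, as log2(TPM + 1), ordered by the fitted difference of cKO minus WT. The upper symbols in each row are WT and the lower ones cKO, and 8 of the 24 rows show no overlap, among them Srsf3 with all 3 cKO libraries at 0 and Hnrnpm with all 3 cKO libraries above WT.

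Among the SR proteins, 34 transcripts of 9 genes were listed and 2 could be tested. Srsf3, the smallest SR protein and a regulator of its own splicing, had a form that reached 1 TPM in WT alone and so passed the filter only through the genotype in which it was high. Its p, although the smallest of the 24, therefore describes a difference that the filter required. Srsf3 ENSMUST00000233127, the form without the exon that holds the start codon, had 1.57, 1.46 and 1.68 TPM in WT and was listed at 0 in cKO 1 to 3. The WT values lay close together and apart from cKO, but the difference of -1.36 ± 0.27 (SE) on the log2(TPM + 1) scale did not pass (limma adjusted p = 0.134), and the adjusted p given by the authors' deposited table was 1. A second Srsf3 form, ENSMUST00000233209, named here after its values were seen, was listed at 0, 2.74 and 2.07 TPM in WT, against 0 in cKO. The 4 listed Srsf3 transcripts together were at 1.62, 4.92 and 3.80 TPM in WT, against 1.03, 0 and 0 TPM in cKO, with an exact two-sided permutation p of 0.1, the smallest that 3 against 3 can give. Several other genes of the set reached the same p by their sums, among them Rbm3, Prpf39, Hnrnpr and Snrpa with lower sums in cKO. Hnrnpm, Hnrnpdl, Rbm7 and Rbm11 reached it with higher sums in cKO. How often genes of the whole table reach this p was not counted. The main coding form of Srsf3 was not among its listed transcripts.

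The authors' comparison called an assembled transcript of Srsf10, an SR-like protein that represses splicing when dephosphorylated. Srsf10 MSTRG.12880.7 was at 0.73, 0.94 and 0.33 TPM in WT, against 0 in all cKO libraries, and the authors' deposited table gives it a log2 fold change of -8.68 with an adjusted p of 1.69e-06. It was called there together with 1 other transcript of these genes, so 2 of 257 (0.778%) were called, where the table as a whole has 0.268%. Since 1 of these is below 1 TPM in each library and neither passed the filter, they were not tested here. The 7 listed Srsf10 transcripts together did not separate the genotypes, at 1.76, 2.47 and 1.65 TPM in WT, against 1.35, 3.94 and 0.85 TPM in cKO (exact two-sided permutation p of 1). Srsf11 ENSMUST00000152274, a retained intron, was at 0.08, 3.27 and 2.78 TPM in WT, against 0.56, 0.40 and 1.09 TPM in cKO. WT 1 was the lowest library of all 6 here. The 7 listed Srsf11 transcripts, 5 lower and 2 higher in cKO, together did not separate the genotypes. They summed to 2.08, 3.94 and 2.78 TPM in WT, against 1.06, 4.17 and 3.51 TPM in cKO. The most abundant SR transcript outside the test, Srsf2 ENSMUST00000177429, was at 5.24 TPM in WT 2 and listed at 0 in the other 5.

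The hnRNP genes gave 54 listed transcripts of 18 genes, 9 of them tested. Hnrnpm, which binds GU-rich introns and regulates splicing in macrophages, had a retained-intron form with a higher value in each cKO library than in any WT library. Hnrnpm ENSMUST00000234893 was listed at 0 TPM in WT 1, at 1.26 and 1.64 TPM in WT 2 and WT 3, while cKO 1 to 3 had 3.21, 4.73 and 6.68 TPM. The difference of 1.65 ± 0.51 (SE) on the log2(TPM + 1) scale did not pass (limma adjusted p = 0.209). Without WT 1, the library at 0, it was 1.22 ± 0.47 (SE). The 2 other listed Hnrnpm retained introns had lower means in cKO. ENSMUST00000153608 was at 0.13, 0.74 and 1.09 TPM in WT, against 0.10, 0 and 0.12 TPM in cKO.

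Hnrnpk, a protein with KH domains that binds C-rich RNA, had 14 in the table, the most of any of these genes, of which 5 were lower in cKO and 9 higher. It was the only gene with tested transcripts in both directions. Hnrnpk ENSMUST00000176797, annotated as protein coding, was at 3.17, 2.29 and 1.72 TPM in WT, against 0.39, 0 and 1.02 TPM in cKO, and the groups did not overlap. Its difference of -1.24 ± 0.40 (SE) on the log2(TPM + 1) scale did not pass (limma adjusted p = 0.209). Hnrnpk ENSMUST00000224342, also annotated as coding, was at 1.25, 5.81 and 0.84 TPM in WT, against 0, 0.90 and 1.78 TPM in cKO, with WT 2 the highest library. The form that skips the exon of 44 bases, ENSMUST00000225031, a substrate of nonsense-mediated decay, was at 0, 0.53 and 1.03 TPM in WT, against 1.79, 0.63 and 1.02 TPM in cKO. All 14 together were at 4.66, 10.1 and 8.15 TPM in WT, against 3.39, 4.37 and 5.57 TPM in cKO. These sums overlapped, since cKO 3 was above WT 1 (exact two-sided permutation p of 0.2).

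Hnrnpa2b1 and Hnrnpd had lower means in cKO, with cKO 2 inside the WT range in each. Hnrnpa2b1 encodes an RNA-binding protein of splicing and RNA transport, and its assembled transcript MSTRG.14909.4 was at 5.33, 3.85 and 10.97 TPM in WT, against 1.15, 5.05 and 0 TPM in cKO. Hnrnpd encodes AUF1, which binds AU-rich elements of cytokine mRNAs and favours their decay. Hnrnpd ENSMUST00000171106, a substrate of nonsense-mediated decay, was at 3.44, 3.96 and 7.79 TPM in WT, against 1.12, 4.63 and 0 TPM in cKO. The log2(TPM + 1) differences were -1.61 ± 0.72 (SE) for Hnrnpa2b1 and -1.34 ± 0.67 (SE) for Hnrnpd, and neither passed (limma adjusted p = 0.209 and 0.217). Without cKO 3, the library at 0, they were -0.99 for Hnrnpa2b1 and -0.74 for Hnrnpd.

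A coding form of Hnrnpc, which binds U-rich tracts and keeps cryptic exons out, was listed at 0 in WT 2 and was at 3.16 and 4.59 TPM in the other WT libraries. Hnrnpc ENSMUST00000227242 was at 2.98, 3.96 and 7.26 TPM in cKO, so the groups overlapped. Hnrnph3 ENSMUST00000119814 was at 0, 2.02 and 1.19 TPM in WT, against 2.36, 1.99 and 1.83 TPM in cKO. For Hnrnpdl, a relative of Hnrnpd, the processed transcript ENSMUST00000135424 was at 1.29, 1.00 and 1.26 TPM in WT, against 1.5, 2.21 and 2.41 TPM in cKO. The Hnrnpdl groups did not overlap, and the difference of 0.47 ± 0.35 (SE) on the log2(TPM + 1) scale did not pass (limma adjusted p = 0.33). The second transcript called by the authors was the principal form Hnrnph2 ENSMUST00000113203, an X-linked gene whose protein binds G-rich runs. It was at 0.48, 2.72 and 0.51 TPM in WT, against 0 in cKO, and the authors' deposited table gives it a log2 fold change of -7.87 with an adjusted p of 0.00085. WT 2 held most of it, and Hnrnph1 is a close copy with which reads could be shared.

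For the SF3 complexes, 19 transcripts of 8 genes were listed, 13 lower and 6 higher in cKO, and 1 was tested. Sf3b3, the subunit that supports SF3B1 around the branch point, had an assembled transcript that was lower in every cKO library than in any WT library. Sf3b3 MSTRG.18035.2 was at 1.70, 3.19 and 4.50 TPM in WT, against 0.66, 0.72 and 1.49 TPM in cKO. The difference of -1.04 ± 0.42 (SE) on the log2(TPM + 1) scale did not pass (limma adjusted p = 0.209). Sf3b6 ENSMUST00000219128, the next most abundant SF3 transcript, was at 1.77 TPM in cKO 1, and every other library listed it at 0. The 3 listed Sf3b1 transcripts, from the gene of the subunit that clasps the branch point, were each at 0.79 TPM or less.

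U2AF had 13 listed transcripts, 9 of them from U2af1l4, a relative of the small subunit. U2af1 ENSMUST00000235969, a retained intron of the gene for the small subunit itself, was at 0.85, 1.59 and 2.12 TPM in WT, against 0.71, 0.60 and 0.29 TPM in cKO. The groups did not overlap (exact two-sided permutation p of 0.1, the smallest possible, as for several other genes of the set). The transcript was below the filter for the limma test. U2af1l4 ENSMUST00000170453, a retained intron, was at 0, 1.38 and 2.25 TPM in WT, against 0, 1.32 and 0 TPM in cKO. Both genotypes had a library at 0.

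The Snrp family held the most abundant transcript of the whole set. Snrpg encodes an Sm protein, part of the ring that binds most spliceosomal snRNAs. The Snrpg retained intron ENSMUST00000203782 had 20.0, 3.47 and 12.2 TPM in WT, in the order of the libraries, against 33.0, 8.96 and 34.0 TPM in cKO. WT 2 and cKO 2 were the low libraries of their genotypes, and cKO 2 lay inside the WT range. The difference of 1.09 ± 0.81 (SE) on the log2(TPM + 1) scale did not pass (limma adjusted p = 0.33), and it was 0.45 without WT 2 and 1.68 without cKO 2. All 3 listed Snrpg transcripts were higher in cKO by the deposited fold change. Without Snrpg the family summed to 5.38, 3.23 and 4.72 TPM in WT, against 6.59, 4.75 and 6.27 TPM in cKO. Snrpc MSTRG.7653.2, from the gene of a U1 snRNP protein that helps bind the splice donor, was at 1.55, 0.95 and 1.06 TPM in WT, against 3.31, 0.79 and 2.17 TPM in cKO. Here cKO 2 was the lowest of all 6 libraries.

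All 90 retained introns summed to 31.85, 38.73 and 42.71 TPM in WT, against 48.54, 36.76 and 50.82 TPM in cKO. In that sum cKO 1 and cKO 3 were above every WT library, and cKO 2 lay inside the WT range. Retained introns other than that of Snrpg, 89 in all, summed to 11.9, 35.3 and 30.5 TPM in WT, against 15.5, 27.8 and 16.8 TPM in cKO. Which genotype had the higher mean thus depended on the Snrpg form. The 33 substrates of nonsense-mediated decay summed to 11.7, 15.7 and 22.9 TPM in WT, against 6.58, 13.04 and 7.42 TPM in cKO. The genotypes overlapped in the intron sum without Snrpg, through WT 1, and in the sum of the decay substrates, through cKO 2.

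For the Prpf genes 35 transcripts were listed, of which 21 were lower in cKO and 14 higher. Prpf4b encodes a kinase of the tri-snRNP, the assembled U4/U6 and U5 particle. Prpf4b ENSMUST00000222509, a substrate of nonsense-mediated decay, was at 2.08, 3.93 and 3.63 TPM in WT, against 0.29, 1.52 and 1.64 TPM in cKO. The groups did not overlap, and the difference of -1.01 ± 0.45 (SE) on the log2(TPM + 1) scale did not pass (limma adjusted p = 0.209). The 3 listed decay substrates of Prpf4b, grouped after their values were seen, summed to 3.79, 5.62 and 4.61 TPM in WT, against 0.86, 2.10 and 2.15 TPM in cKO. All 5 listed Prpf4b transcripts together gave an exact two-sided permutation p of 0.1, the smallest possible, which several other genes of the set also reached. A decay substrate of Prpf38b, ENSMUST00000129273, was at 0.75, 1.38 and 1.76 TPM in WT, against 0.80, 0.54 and 0 TPM in cKO, with cKO 1 just above WT 1.

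The Rbm genes were the largest family, with 83 listed transcripts of 31 genes, 47 lower and 36 higher in cKO, and 5 of them tested. Rbm5, a splicing regulator of apoptosis genes, had a coding form that was lower in each cKO library than in any WT library. Rbm5 ENSMUST00000035199 was at 1.76, 1.21 and 1.37 TPM in WT, against 0.21, 0.95 and 0 TPM in cKO. It too reached 1 TPM in WT alone and passed the filter only through that genotype. The difference of -0.87 ± 0.36 (SE) on the log2(TPM + 1) scale did not pass (limma adjusted p = 0.209). Another coding form, ENSMUST00000182026, was at 0, 0.64 and 0.38 TPM in WT, against 0.25, 1.85 and 1.45 TPM in cKO. All 8 listed Rbm5 transcripts together were at 2.11, 1.85 and 2.31 TPM in WT, against 0.51, 4.12 and 2.39 TPM in cKO. These sums overlapped (exact two-sided permutation p of 0.7). Rbm4, a regulator of alternative exons, had a coding form that was higher in each cKO library than in any WT library. Rbm4 ENSMUST00000164376 was at 0, 0.91 and 1.59 TPM in WT, against 2.91, 1.95 and 2.46 TPM in cKO, a difference of 1.00 ± 0.44 (SE) on the log2(TPM + 1) scale (limma adjusted p = 0.209). Without WT 1, the library at 0, the Rbm4 difference was 0.62. Rbm4 has the close copy Rbm4b, with which reads could be shared.

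Rbm19, whose counterpart in yeast acts in ribosome production, had 1 listed transcript, the retained intron shown above. Rbm19 ENSMUST00000202388 was at 1.74, 1.58 and 0 TPM in WT, against 2.34, 2.82 and 1.62 TPM in cKO, with an overlap between WT 1 and cKO 3. Rbm39, a U2AF-like protein and the target of aryl sulfonamide degraders, had 9 in the table, of which 7 were lower in cKO and 2 higher. Its assembled transcript MSTRG.10703.3 was at 1.35, 0 and 1.98 TPM in WT, against 2.53, 1.89 and 1.32 TPM in cKO.

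The share of a transcript in the listed TPM of its gene was tested for 20 transcripts of these genes, as the log2 ratio of the transcript to the other listed transcripts of the gene. With 1 TPM added to both sides, this ratio still moves somewhat with the scale of a library. A library without listed TPM of a gene has no share, but entered the test as a log2 ratio of 0. This was so for Srsf3 in cKO 2 and cKO 3, U2af1l4 in cKO 1 and Hnrnpa2b1 in cKO 3. No share passed by limma with Benjamini-Hochberg adjustment over 1551 transcripts, 4 of which (0.258%) did. The lowest adjusted p of these genes was 0.121, for Hnrnpm. Without adjustment, p was under 0.05 for 2 lower and 4 higher shares, against 9.93% and 9.22% of all tested shares. A form outside the table does not enter a share, so these are shares of listed TPM and not of the whole gene.

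Hnrnpm ENSMUST00000234893, the retained intron, made up 0%, 38.3% and 51.1% of the listed Hnrnpm TPM in WT 1 to 3 and 85.4%, 92.2% and 90.8% in cKO 1 to 3. The groups did not overlap, and the log2 ratio differed by 2.45 ± 0.49 (SE). Rbm4 ENSMUST00000164376 made up 0%, 40.6% and 80.3% of its gene in WT and 92.7%, 88.2% and 92.8% in cKO, with only 2 listed transcripts. The coding form Rbm5 ENSMUST00000035199 held 83.4%, 65.4% and 59.3% of its gene in WT and 41.2%, 23.1% and 0% in cKO, a log2 ratio that differed by -1.57 ± 0.55 (SE). The Rbm5 form reached 1 TPM in WT alone, so the filter itself favoured a lower share in cKO. Some of these shares are of very little, since listed TPM summed to 0.17 for Rbm4 in WT 1 and to 0.51 for Rbm5 in cKO 1. None of these 3 passed (limma adjusted p = 0.121 for Hnrnpm and 0.212 for both Rbm genes).

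Rbm39 MSTRG.10703.3 made up 41.7%, 0% and 30.8% of the listed Rbm39 TPM in WT, against 82.7%, 57.4% and 55.2% in cKO, without overlap, and its log2 ratio differed by 1.56 ± 0.56 (SE). The exon-skipping Hnrnpk ENSMUST00000225031 made up 0%, 5.25% and 12.6% of its 14 listed transcripts in WT and 52.8%, 14.4% and 18.3% in cKO, also without overlap. For Sf3b3 MSTRG.18035.2 the share was 97.4% or more in each library, so its log2 ratio of -1.05 ± 0.43 (SE) follows the level of that transcript alone. None of these passed either (limma adjusted p = 0.212, 0.237 and 0.252).

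**Figure D4:**
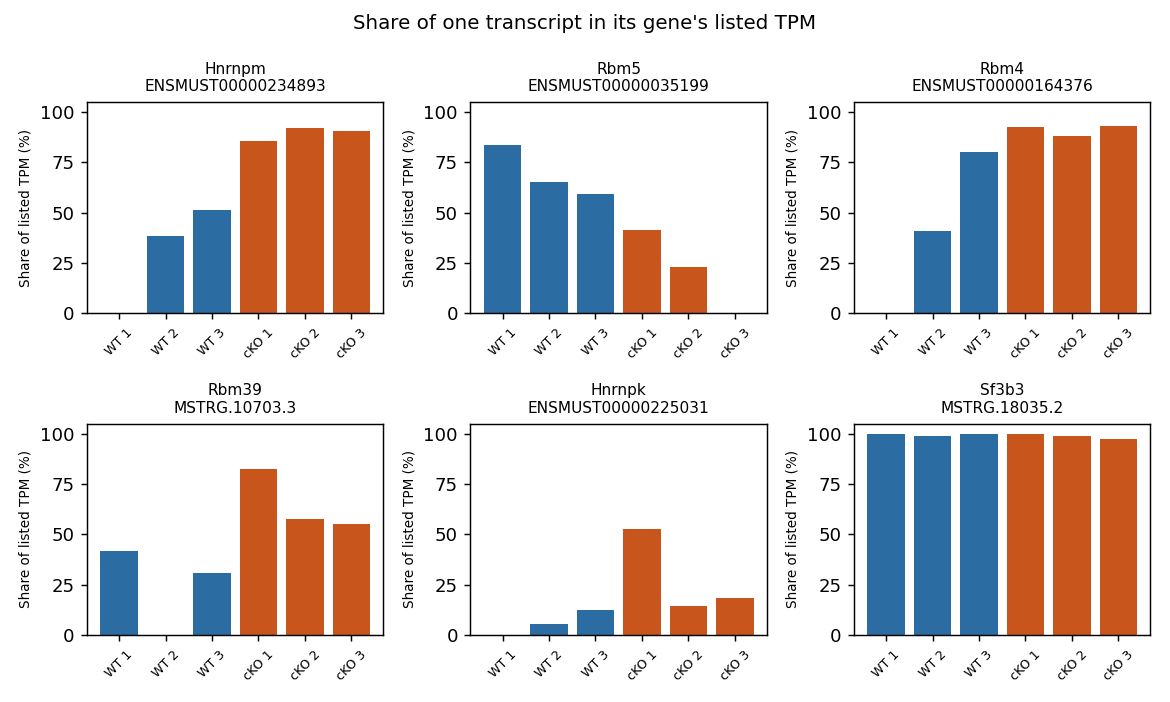
Share of 1 transcript in the listed TPM of its gene, in percent, in each of the 6 libraries, for the 6 transcripts with the smallest p in the share test. In Hnrnpm, Rbm4, Rbm39 and Hnrnpk each cKO bar is above each WT bar, in Rbm5 each is below, and in Sf3b3 all are at 97.4% or more. The Rbm5 form passed the filter on low values through WT alone. The 6 were picked by their p, and how often the groups did not overlap over all tested shares was not counted.

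Of other splicing genes, outside the name rule, 0 transcripts passed in either direction in each of 5 lists, where 0% of all tested transcripts passed. Of 35 further snRNP and spliceosome proteins, 23 had a listed transcript, and 7 transcripts were tested, with a median difference of 0.52. Of the 7, 3 had an unadjusted limma p under 0.05, against 23% of all tested transcripts. In the lists below, such a p came in 0 of 4 for catalytic complexes and helicases and 2 of 10 for SR-related proteins and SR kinases. It came in 1 of 15 for other splicing regulators and 1 of 4 for the exon junction complex and nonsense-mediated decay list. Eftud2, the GTPase of the U5 particle, had the 2 smallest p among the further snRNP and spliceosome proteins. Eftud2 ENSMUST00000141273, a retained intron, was at 0, 0.45 and 0.47 TPM in WT, against 1.69, 3.72 and 3.19 TPM in cKO, and Eftud2 ENSMUST00000132543, a decay substrate, at 0.62, 0 and 0 TPM in WT, against 2.29, 1.34 and 1.16 TPM in cKO. Both were higher in each cKO library than in any WT library, and neither passed (limma adjusted p = 0.168 and 0.209). Both reached 1 TPM in cKO alone and so passed the filter only through the genotype in which they were high. The lack of overlap and the small p therefore describe a difference that the filter required.

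Among catalytic complexes and helicases, 4 transcripts were tested, with a median of 0.75, and those with the smallest p were of the second-step factor Slu7 and the helicase Ddx23. Their differences, 1.08 ± 0.55 (SE) for Slu7 and 0.92 ± 0.59 (SE) for Ddx23, came with overlapping groups. Among SR-related proteins and SR kinases, 10 were tested, with a median of -0.82. Srrm1 MSTRG.12873.2, of an SR-related coactivator, was at 1.74, 5.58 and 3.23 TPM in WT, against 1.27, 0.61 and 0.49 TPM in cKO. A retained intron of Clk4, a kinase of SR proteins, was at 2.00, 1.07 and 1.52 TPM in WT, against 0, 0 and 0.91 TPM in cKO. The groups did not overlap in either. The Clk4 form reached 1 TPM in WT alone and passed the filter only through that genotype, so its lack of overlap was required by the filter.

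Among other splicing regulators, 15 transcripts were tested, with a median of -0.74. A coding form of Pcbp2, which binds C-rich RNA like Hnrnpk, was at 4.36, 5.03 and 3.64 TPM in WT, against 1.10, 1.32 and 0.46 TPM in cKO, a difference of -1.47 ± 0.39 (SE) on the log2(TPM + 1) scale that did not pass (limma adjusted p = 0.196). A form of the nuclear matrix gene Matr3 was at 9.61, 9.41 and 13.9 TPM in WT, against 1.95, 9.12 and 2.02 TPM in cKO, with cKO 2 just below WT. In the exon junction complex and nonsense-mediated decay list, 4 were tested, with a median of 0.56. Eif4a3, the helicase that anchors the junction complex, had a processed transcript at 5.23, 0 and 0 TPM in WT, against 11.6, 4.87 and 3.20 TPM in cKO, and Thoc7 ENSMUST00000225401 was at 2.13, 0.97 and 3.66 TPM in WT, against 2.31, 6.65 and 3.75 TPM in cKO. Both overlapped between the genotypes. The median over all 2050 tested transcripts was -0.39, and no list was compared with it by a test.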

How the data were processed

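Poly(A) RNA was made into stranded libraries and sequenced from both ends, per the labels' protocols. These also name fastp for trimming, HISAT2 for alignment and StringTie for assembly. The submitters' processing notes list RSEM and DESeq2 with no version. The genome build is not given in the sources used here. The authors deposited TPM per library and transcript, their own fold change as a ratio, its log2 value, and p-values and adjusted p-values. From TPM alone the depth of a library is unknown, and counting intervals were not computed. There were 0 unmatched columns of per-sample values.

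Transcripts with at least 1 TPM in at least 3 libraries were tested as log2(TPM + 1) with limma 3.58.1 in R 4.3.3 (trend, two-sided, threshold 0.05), over the whole table. This scale understates changes of low transcripts. Isoform shares were tested as log2((TPM + 1)/(TPM of the gene's other listed transcripts + 1)). Both fits were checked on simulated data that did not carry the selection of the table, so the check does not cover its effect on p-values. Tables were handled with Python 3.11.15 and pandas 2.3.3. Classes came from GENCODE M21, by identifier. The design text speaks of 3 littermate pairs without saying which numbers pair. A p-value weighs the difference between the genotypes against the spread within them, and takes no account of the selection of the table.

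The members, lists and tests were chosen with earlier results of these data known. The rule for naming takes the 2 most abundant transcripts of each family, up to 8 per direction and 6 shares with the smallest p, those called in the authors' deposited table, genes tested in both directions, and 2 transcripts of each other list. Alternatives were a replicate block, each library left out, median-ratio rescaling, quantile normalization, a pseudocount of 0.1, no filter, and a filter on the mean.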

Additional observations from a re-analysis of the deposited data

How the results depend on the processing

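The count of called transcripts of these genes was 0 for levels and 0 for shares in the main test and under each of the 12 alternatives. The replicate number as a block also gave 0 calls for both, and 0 over all 2050 levels and all 1551 shares. Deviations of same-numbered libraries correlated at 0.13, -0.14 and -0.11, which did not show that the numbers pair the libraries and did not exclude it. Leaving out each library gave 0 to 0 calls for levels and for shares. For the 20 named and tested levels, no direction turned under 236 alternative values, and the lowest adjusted p was 0.132. Many of these were named for a small p, and all were listed for a large fold change, which favours a kept direction. Of all 24 tested transcripts, 11 were lower in the main test and 12 without cKO 3. With a pseudocount of 0.1 the difference of Srsf3 ENSMUST00000233127 was -4.06 and that of Hnrnpm ENSMUST00000234893 was 2.95, against -1.36 and 1.65. For 17 named shares, 5 of 200 values turned, in shares that did not pass either way. With a pseudocount of 0.1 the share difference of Snrpg ENSMUST00000203782 was -0.31, against 0.27. Leaving out each library in turn, it ranged from -0.84 (without WT 2) to 0.99. That of Srsf3 ENSMUST00000233127 ranged from -0.88 to 0.20 (without WT 1), of Hnrnpk ENSMUST00000224342 from -1.08 to 0.19 (without WT 2) and of U2af1l4 ENSMUST00000170453 from -0.048 (without WT 1) to 0.89. For Srsf3 in cKO 2 and cKO 3, and for U2af1l4 in cKO 1, no TPM of the gene was listed, and the log2 ratio entered as 0. Why these share differences turned was not tested.

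Median-ratio rescaling moved the median of all tested levels from -0.39 to -0.10 and that of these genes from 0.37 to 0.51. With a filter on the mean, the medians were -0.68 and -0.12. Over all transcripts, called levels numbered between 0 and 4, and called shares between 0 and 19, the latter without cKO 2. Without a read depth, low transcripts listed at 0 cannot be told from transcripts missed.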
